A study of Mus musculus with 12 samples.

Results

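The 9 genes described here encode inducible brakes on mitogen-activated protein kinase (MAPK) signalling: the dual-specificity phosphatases Dusp1, Dusp2, Dusp4, Dusp5, Dusp6, Dusp10 and Dusp16, and the feedback inhibitors Spry2 and Spred1. They were found by symbol in the deposited count and FPKM tables (FPKM divides fragments by gene length and by depth), where they are 9 of 24934 genes counted and 9 of 13249 genes tested. They were selected on symbols with the fold changes and calls of the same libraries already known from an earlier analysis. Their changes are therefore given as a description, and a call only states on which side of the threshold a gene fell in the fit across all genes.

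Growth factors, cytokines and stress activate tiered kinase cascades that end in ERK, p38 or JNK, kinases that must be phosphorylated on a threonine and a nearby tyrosine to work. DUSP enzymes of this class remove both phosphates, and several are transcribed in response to the kinase they switch off, which closes a feedback loop. Sprouty and Spred proteins act further up, between the receptor, RAS and RAF. In microglia, the resident macrophages of the brain, p38, JNK and ERK take part in the cytokine response to ischaemia.

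RNA was sequenced from BV2 cells, a mouse microglial line that was immortalised with a retrovirus carrying v-raf, an activated form of the kinase above MEK and ERK, and v-myc. All 3 groups share this background. Control cells were labelled without any agent. OGD stands for oxygen-glucose deprivation with re-oxygenation, a culture model of ischaemic stroke, and Acacetin for cells given this plant flavone at 10 µM. The label of the Acacetin group does not itself state deprivation, but the design text places acacetin after it, and the group was read that way. Each group had 4 libraries, and the labels do not say whether these came from separate cultures, so p-values reflect only how these samples spread, which may be technical.

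The 12 libraries held from 16427886 to 32693066 counted reads. The share of 18S ribosomal RNA was 13.1% in OGD 2, 21.3% in OGD 3 and at most 1.86% in any other library. Libraries also differed in the level of long genes relative to short ones. The slope of log2 expression against log2 length was lowest in Acacetin 1 (-0.19) and highest in Acacetin 3 (0.25). Coverage along genes was not measured, so these slopes do not tell coverage from expression. All 15 microglial and macrophage markers had reads and 13 averaged at least 1 CPM (counts put on a common library size), with Lyz2 at 1710, Cd68 at 878 and Tyrobp at 648 CPM. Their summed level was 4160 to 4950 CPM in Control, 3640 to 5140 in OGD and 3050 to 4660 in Acacetin. The homeostatic microglial marker P2ry12 was near 0, at 0.0467 CPM. Of the other cell types, oligodendrocyte markers summed to 87.0 to 107 CPM in Control, 77.6 to 105 in OGD and 55.1 to 111 in Acacetin, almost all of it Cnp (mean 87.2). Neuronal markers summed to 22.5 to 34.8, 16.1 to 22.3 and 15.7 to 23.3 CPM, mostly Syn1 (mean 18.5), and endothelial markers to 5.70 to 9.84 CPM, mostly Vwf (mean 5.64). Aqp4, Mog and Syt1, which mark astrocytes, oligodendrocytes and neurons, were not listed. Astrocyte, fibroblast and lymphocyte markers summed to at most 1.50, 0.398 and 0.357 CPM. The part of these markers in the results was not tested. In RNA from a whole culture, fewer cells of a kind and less RNA per cell cannot be told apart.

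In OGD against Control, Dusp2 and the ERK-selective Dusp5 and Dusp6 rose, while Dusp4, which acts on ERK and JNK, and Dusp10 fell. Dusp6 rose 1.69-fold, Dusp5 1.54-fold and Dusp2 1.81-fold. Dusp4 fell to 59.6 ± 5.95 from 225 ± 46.8 CPM, a 3.77-fold difference, and Dusp10 was 2.59-fold lower. In all, 5 of the 9 genes were called (3 higher, 2 lower), beside 28.8% of all tested genes (16.2% higher, 12.6% lower). The same 5 showed no overlap between the groups on CPM, beside 36.0% of all tested genes (19.0% higher, 17.0% lower). On FPKM, Dusp5 (13.31 to 28.58 in OGD, 12.39 to 15.98 in Control) and Dusp6 (13.45 to 26.29 and 11.47 to 13.73) overlapped. The median log2 fold change of the 9 was 0.20, beside 0.03 over all tested genes. Errors are standard deviations (SD, n = 4 libraries) after a mean and standard errors (SE) after a log2 fold change from edgeR. The SE was derived from the edgeR test, as the size of the log2 fold change over the square root of its F statistic.

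**Figure D1:**
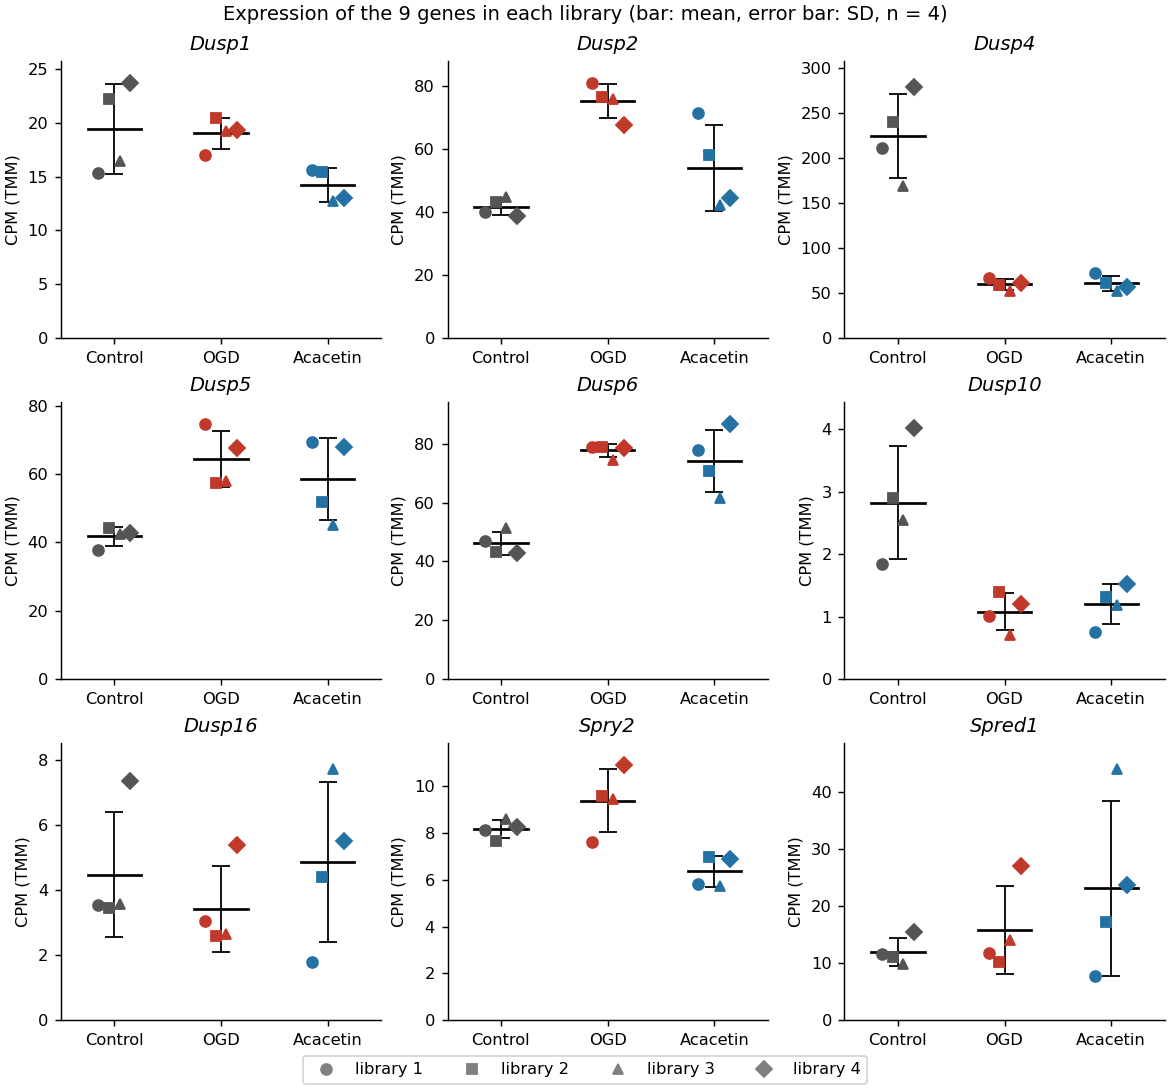
Expression of the 9 genes in each of the 12 libraries, as CPM on a linear axis that starts at 0, with 1 panel per gene. Points are libraries with 1 symbol per library number, long bars are group means and error bars are SD (n = 4). Dusp4 and Dusp10 are lower and Dusp2, Dusp5 and Dusp6 higher in every OGD library than in every Control library, while the Acacetin libraries spread most for Spred1 and Dusp16.

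Dusp6 (ENSMUSG00000019960, chromosome 10) encodes the cytoplasmic phosphatase that binds and inactivates ERK with high selectivity, and its transcript is widely used as a readout of ERK activity. Its level was 47.1, 43.1, 51.3 and 42.9 CPM in Control 1 to 4 and 79.0, 79.1, 74.4 and 78.8 CPM in OGD 1 to 4. In Acacetin 1 to 4 it was 77.9, 70.9, 61.7 and 86.6 CPM. All 8 OGD and Acacetin libraries lay above all Control libraries, and the OGD group lay inside the range of the wider Acacetin group. Against Control the log2 fold change was 0.75 ± 0.12 in OGD and 0.69 ± 0.12 in Acacetin, and the gene was called in both.

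Dusp5 (ENSMUSG00000034765, chromosome 19) encodes a nuclear phosphatase that is also selective for ERK and holds it in the nucleus. Control 1 to 4 had 37.9, 44.2, 42.6 and 42.6 CPM, and OGD 1 to 4 had 74.7, 57.3, 58.1 and 67.6 CPM. Acacetin 1 to 4 had 69.5, 51.8, 45.0 and 67.9 CPM. Every OGD and Acacetin library was above every Control library, with Acacetin 3 closest to them. Its log2 fold change was 0.62 ± 0.15 in OGD and 0.48 ± 0.15 in Acacetin against Control, and both were called. The Acacetin call was the least stable of the member calls: its adjusted p of 0.0296 became 0.0868 without Acacetin 4, 0.0869 without Control 1, 0.0595 without Control 2 and 0.0605 without Control 3.

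The promoter of Dusp5 is shown because it is the only one among the members' promoters matched in RefSeq that holds a CArG box, the element bound by serum response factor (SRF), through which ERK signals to many early genes. The 250 bases before its RefSeq start lie at chr19:53528895-53529144 (GRCm38.p6, plus strand), with the matches to the motifs searched in capitals.
Dusp5: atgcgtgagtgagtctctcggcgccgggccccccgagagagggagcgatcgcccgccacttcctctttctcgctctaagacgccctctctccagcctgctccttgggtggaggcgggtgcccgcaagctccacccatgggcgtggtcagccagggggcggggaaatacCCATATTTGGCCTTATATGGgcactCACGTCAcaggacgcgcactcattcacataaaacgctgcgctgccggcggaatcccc
The 2 CArG boxes stand end to end, from -82 to -73 and from -72 to -63 before the start. The last capitals hold the core of a cyclic AMP response element (CRE), TGACG on either strand, and overlapping it the letters ACGTG. A CArG box was found in 1.63% of the 32851 promoters of the table, each taken as 250 bases before to 50 after the start. The transcript of the factor itself, Srf, was 64.0 ± 5.27 CPM in Control, 128 ± 9.99 in OGD and 110 ± 23.7 in Acacetin, with log2 fold changes of 0.99 ± 0.15 and 0.78 ± 0.15 against Control (adjusted p = 0.000395 and 0.00223).

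Dusp4 (ENSMUSG00000031530, chromosome 8) encodes a nuclear phosphatase that acts on ERK and JNK. It was the most abundant of the 9 in Control, with 211, 241, 169 and 279 CPM in libraries 1 to 4. OGD 1 to 4 had 66.6, 58.6, 52.3 and 60.9 CPM, and Acacetin 1 to 4 had 72.6, 61.1, 52.1 and 56.5 CPM. Every Control library was far above the highest of the other 8, and the OGD and Acacetin ranges lay on top of each other. Its log2 fold change was -1.92 ± 0.17 in OGD and -1.89 ± 0.16 in Acacetin against Control, the largest in size among the 9 in both comparisons.

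Dusp2 (ENSMUSG00000027368, chromosome 2) encodes a nuclear phosphatase that is induced early in activated immune cells. It stood at 40.1, 43.3, 44.8 and 38.8 CPM in Control 1 to 4 and at 80.9, 76.5, 76.0 and 67.8 CPM in OGD 1 to 4. The Acacetin libraries 1 to 4 had 71.4, 58.1, 42.1 and 44.6 CPM. On CPM they therefore ran from the Control range (Acacetin 3 and 4) up into the OGD range (Acacetin 1). On FPKM all 4 were above Control, at 22.84 to 26.45 against 16.19 to 18.71, and inside the OGD range of 21.5 to 35.43. The log2 fold change was 0.85 ± 0.16 in OGD against Control, which was called, and 0.37 ± 0.16 in Acacetin against Control, which was not (adjusted p = 0.0903). Without Acacetin 3 the latter was 0.48 and called (adjusted p = 0.0343), and it was also called once the trend of expression with gene length was removed from each library (adjusted p = 0.00331).

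Dusp1 (ENSMUSG00000024190, chromosome 17) encodes the nuclear phosphatase that switches off p38 and JNK in macrophages and limits their cytokine output. Control 1 to 4 had 15.4, 22.3, 16.4 and 23.8 CPM, OGD 1 to 4 had 17.1, 20.4, 19.3 and 19.4 CPM, and Acacetin 1 to 4 had 15.7, 15.5, 12.7 and 13.0 CPM. On CPM, the Control libraries spanned the whole OGD range, and all 4 Acacetin libraries were below all 4 OGD libraries. On FPKM, Acacetin (3.51 to 4.28) and OGD (3.3 to 6.11) overlapped. Fitted log2 fold changes were -0.03 ± 0.16 in OGD against Control and -0.45 ± 0.16 in Acacetin against Control. Neither was called, but the latter lay beside the threshold with an adjusted p of 0.0527 and was called in 8 of 18 alternative analyses, among them DESeq2 (adjusted p = 0.0137) and the fits without Acacetin 1 (0.0284), Control 1 (0.0343) or Control 3 (0.0468).

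The promoters of Dusp1 and Dusp2, the members with the densest AU-rich 3′ ends and a history as early response genes, are shown with the same capitals. That of Dusp1 lies at chr17:26508473-26508722 (minus strand) and that of Dusp2 at chr2:127335909-127336158 (plus strand), both in GRCm38.p6.
Dusp1: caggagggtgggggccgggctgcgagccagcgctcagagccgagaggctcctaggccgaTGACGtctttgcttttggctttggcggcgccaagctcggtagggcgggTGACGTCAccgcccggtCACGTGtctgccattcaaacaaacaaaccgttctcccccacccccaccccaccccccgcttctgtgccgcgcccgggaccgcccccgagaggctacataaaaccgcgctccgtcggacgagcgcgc
Dusp2: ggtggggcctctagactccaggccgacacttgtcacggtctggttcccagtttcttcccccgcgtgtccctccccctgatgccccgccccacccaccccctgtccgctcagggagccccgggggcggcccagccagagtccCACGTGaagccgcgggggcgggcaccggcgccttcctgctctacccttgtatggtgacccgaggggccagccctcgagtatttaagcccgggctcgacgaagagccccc
Dusp1 alone among the matched members holds the full CRE palindrome TGACGTCA, from -143 to -136, which stands in 1.79% of all promoters. Both promoters hold CACGTG, which contains the hypoxia response core ACGTG on each strand, at -126 to -121 in Dusp1 and at -109 to -104 in Dusp2. In Dusp2 the CRE core falls after the start, at position 6, outside the stretch printed.

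Dusp10 (ENSMUSG00000039384, chromosome 1) encodes a phosphatase selective for p38 and JNK. It was scarce, with 9 to 121 reads per library. Control 1 to 4 had 1.84, 2.90, 2.54 and 4.01 CPM, OGD 1 to 4 had 1.01, 1.40, 0.703 and 1.20 CPM, and Acacetin 1 to 4 had 0.760, 1.31, 1.18 and 1.52 CPM. Every Control library was above every other library, and the OGD and Acacetin ranges overlapped. Fitted log2 fold changes were -1.37 ± 0.32 in OGD and -1.23 ± 0.31 in Acacetin against Control, and both were called.

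Dusp16 (ENSMUSG00000030203, chromosome 6) encodes a phosphatase that prefers JNK and shuttles between nucleus and cytoplasm. Control 1 to 4 had 3.56, 3.44, 3.57 and 7.36 CPM, OGD 1 to 4 had 3.06, 2.60, 2.66 and 5.39 CPM, and Acacetin 1 to 4 had 1.81, 4.40, 7.75 and 5.53 CPM. Control 4, OGD 4 and Acacetin 3 were the highest of their groups, and the 3 groups overlapped. The log2 fold changes of -0.38 ± 0.41 and 0.12 ± 0.40 against Control were not called.

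Spry2 (ENSMUSG00000022114, chromosome 14) encodes a Sprouty protein that is induced by growth factors and restrains the step from receptor to RAS. It was even across Control, at 8.14, 7.67, 8.61 and 8.26 CPM in libraries 1 to 4. OGD 1 to 4 had 7.61, 9.59, 9.45 and 10.9 CPM, and Acacetin 1 to 4 had 5.84, 6.99, 5.74 and 6.88 CPM. On CPM, all 4 Acacetin libraries lay below all 8 others. On FPKM the groups overlapped, at 2.08 to 3.39 in Acacetin, 3.06 to 3.67 in Control and 2.57 to 5.47 in OGD. Fitted log2 fold changes were 0.20 ± 0.17 in OGD and -0.36 ± 0.17 in Acacetin against Control, and neither was called (adjusted p = 0.408 and 0.123).

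Spred1 (ENSMUSG00000027351, chromosome 2) encodes a membrane protein that brings neurofibromin to RAS and so lowers active RAS. It had 11.5, 11.1, 9.88 and 15.5 CPM in Control 1 to 4 and 11.8, 10.1, 14.1 and 27.03 CPM in OGD 1 to 4. The Acacetin libraries 1 to 4 had 7.65, 17.2, 43.9 and 23.6 CPM, a 5.75-fold range within the group that included both the lowest and the highest of the 12 values. The log2 fold changes of 0.40 ± 0.42 in OGD and 0.95 ± 0.42 in Acacetin against Control were not called (adjusted p = 0.528 and 0.107). Without Acacetin 1 the latter was 1.24 and called (adjusted p = 0.0087). Without OGD 4 the OGD difference was -0.004.

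Spred1 and Dusp16 had the longest transcripts of the 9, at 7832 and 8973 bases as implied by the ratio of count to FPKM, against 2313 to 3826 bases for the others. Within groups, both were high where a library's slope on gene length was high. The slope on log2 gene length was -0.07, -0.07, -0.10 and 0.04 in Control 1 to 4, -0.02, -0.12, -0.08 and 0.18 in OGD 1 to 4, and -0.19, 0.05, 0.25 and 0.13 in Acacetin 1 to 4. The library with the highest slope of each group had the highest Spred1 and, likewise, the highest Dusp16. With the length trend removed, the log2 fold change of Spred1 in Acacetin against Control was 0.79 (adjusted p = 0.118) and that of Dusp16 was -0.06. The part of this length trend in these values was otherwise not tested.

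**Figure D2:**
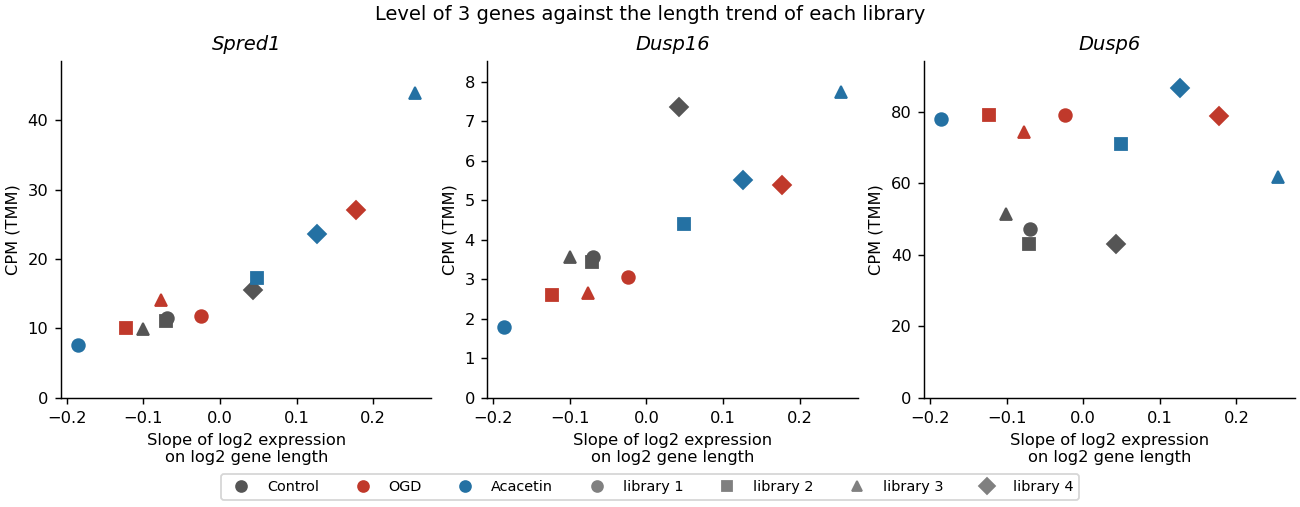
CPM of Spred1, Dusp16 and Dusp6 in each library (vertical, linear from 0) against that library's slope of log2 expression on log2 gene length (horizontal, no unit). Colours are groups and symbols are library numbers. Spred1 is highest in the libraries with the largest slopes, and Dusp16 is highest in the library with the largest slope of each group. Both are lowest in Acacetin 1, whereas Dusp6 separates Control from the other 8 libraries at any slope.

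On the FPKM scale, which divides by length and lets genes be ranked against each other, Control held far more Dusp4 than any other member. Its mean of 70.4 ± 18.3 FPKM was followed by Dusp2 (17.7 ± 1.07), Dusp5 (14.4 ± 1.50), Dusp6 (12.5 ± 0.952), Dusp1 (5.04 ± 1.33), Spry2 (3.34 ± 0.278), Spred1 (1.52 ± 0.408), Dusp10 (0.803 ± 0.307) and Dusp16 (0.50 ± 0.253). The neighbours Dusp5 and Dusp6 overlapped over the Control libraries, and so did Spred1 with Dusp10 and Dusp10 with Dusp16. Within each Control library, the order of these pairs was the same. In OGD the first 4 places were taken by Dusp2 (29.4 ± 7.13), Dusp5 (20.9 ± 7.73), Dusp6 (19.6 ± 5.71) and Dusp4 (17.4 ± 5.89). Over the libraries each overlapped the next, but within each OGD library Dusp2 was the highest and Dusp4 the lowest of these. In Acacetin the first 4 were Dusp2 (24.8 ± 1.91), Dusp6 (22.3 ± 4.28), Dusp5 (22.1 ± 4.14) and Dusp4 (20.6 ± 0.742), again with overlap from each to the next. Their order varied between the Acacetin libraries. In both groups these 4 stood clear of Dusp1, at 4.50 ± 1.19 FPKM in OGD and 4.02 ± 0.354 in Acacetin. Spred1 in Acacetin had the widest relative spread of this order, 3.49 ± 2.72 FPKM.

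A share of the summed FPKM of the 7 phosphatase genes cancels differences in depth and scaling between libraries. Dusp4 made up 57.9%, 58.9%, 49.7% and 63.1% of the sum in Control 1 to 4. It made up 19.3%, 18.6%, 17.2% and 19.3% in OGD 1 to 4, and 22.0%, 22.2%, 22.9% and 19.99% in Acacetin 1 to 4. The 3 ranges did not overlap, with Control far above and Acacetin a little above OGD. A share also moves with the other genes of the sum. Dusp4 itself was at 59.6 CPM in OGD and 60.6 in Acacetin, a log2 fold change of 0.02 ± 0.16. From Control to OGD the share of Dusp2 went from 14.9% ± 2.49 to 32.2% ± 2.15, that of Dusp5 from 12.01% ± 1.38 to 22.3% ± 1.86 and that of Dusp6 from 10.6% ± 2.15 to 21.3% ± 0.884. In Acacetin these shares were 26.3% ± 3.69, 23.2% ± 2.52 and 23.4% ± 2.59. The ratio of Dusp4 to Dusp6 was 5.68 ± 1.59 in Control, 0.875 ± 0.0683 in OGD and 0.939 ± 0.136 in Acacetin. The summed CPM of the 7 genes was 381 ± 47.9, 301 ± 16.2 and 268 ± 35.9 in the same order.

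**Figure D3:**
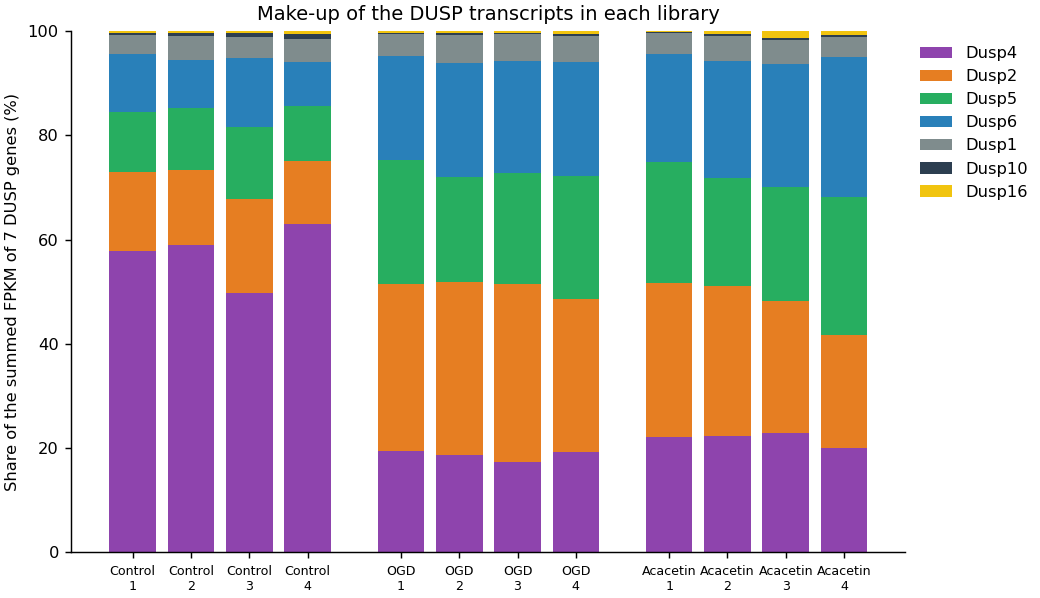
Stacked bars of the share (%) that each of 7 phosphatase genes took of their summed FPKM, with 1 bar per library and libraries grouped as Control, OGD and Acacetin. Dusp4 fills 49.7% to 63.1% of each Control bar and 17.2% to 22.9% of the other 8, where Dusp2, Dusp5 and Dusp6 fill most of the rest.

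In Acacetin against Control, 4 of the 9 genes were called, 2 higher (Dusp5 and Dusp6) and 2 lower (Dusp4 and Dusp10), beside 26.9% of all tested genes (14.0% higher, 12.9% lower). On CPM the groups did not overlap for 5, namely these 4 and Spry2 (2 higher, 3 lower), beside 25.7% of all tested genes (12.1% higher, 13.5% lower). On FPKM, Spry2 overlapped, and so did Dusp10 (0.19 to 0.51 in Acacetin, 0.49 to 1.22 in Control), while Dusp2 did not. The median log2 fold change of the 9 was 0.12, beside 0.08 over all genes. Without Acacetin 1 the count over all genes was 5818 in place of 3559, and 6 members were called. OGD and Acacetin were compared with the same 4 Control libraries, so that the fold changes of the comparisons are not independent.

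Acacetin against OGD asked how the cells that received acacetin differed from those with deprivation alone. None of the 9 genes was called by edgeR, DESeq2 or limma. Over all 13249 genes edgeR called 0%, that is 0 genes, with 5.17% (685 genes) at an unadjusted p under 0.05, while DESeq2 called 37 genes. Of the 9, 3 had an unadjusted p under 0.05, and all 3 had a lower mean in Acacetin. Their log2 fold changes were -0.56 ± 0.17 for Spry2, -0.48 ± 0.16 for Dusp2 and -0.42 ± 0.16 for Dusp1. The adjusted p-values from edgeR were 0.733, 0.797 and 0.829. On CPM the groups did not overlap for Spry2 and Dusp1, as in 2.35% of all tested genes (1.88% lower, 0.468% higher), whereas Dusp2 of Acacetin 1 fell inside the OGD range. On FPKM the groups overlapped for Spry2, Dusp1 and Dusp2.

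The other 6 genes had log2 fold changes between -0.14 (Dusp5) and 0.55 (Spred1) in Acacetin against OGD. Dusp4, at 0.02 ± 0.16, and Dusp6, at -0.07 ± 0.12, were nearest to 0. By mean CPM the order from low to high was Control, Acacetin, OGD for Dusp2, Dusp5 and Dusp6. It was OGD, Acacetin, Control for Dusp4 and Dusp10, and OGD and Acacetin overlapped for all of these. They are the 5 genes called in OGD against Control, a choice that favours an extreme OGD mean and so a middle place for Acacetin. Among the 4 not called there, Acacetin had the lowest mean for Dusp1 and Spry2 and the highest for Dusp16 and Spred1. By mean FPKM, Acacetin stood above OGD for Dusp5 (22.1 against 20.9) and Dusp6 (22.3 against 19.6). Dusp5 was at 15.26 and 13.31 FPKM in OGD 2 and 3, the libraries with the most ribosomal RNA. In OGD 1 and 4 it was at 26.47 and 28.58. On FPKM with 1 and 0.1 added, the median log2 fold change of all genes was itself 0.157 and 0.241 in Acacetin against OGD. Dusp5 was at 0.131 and 0.139 there, and Dusp6 at 0.204 and 0.215. The part of this general shift in the values of these genes was not tested. The plot of fitted changes sets the 3 comparisons beside each other.

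**Figure D4:**
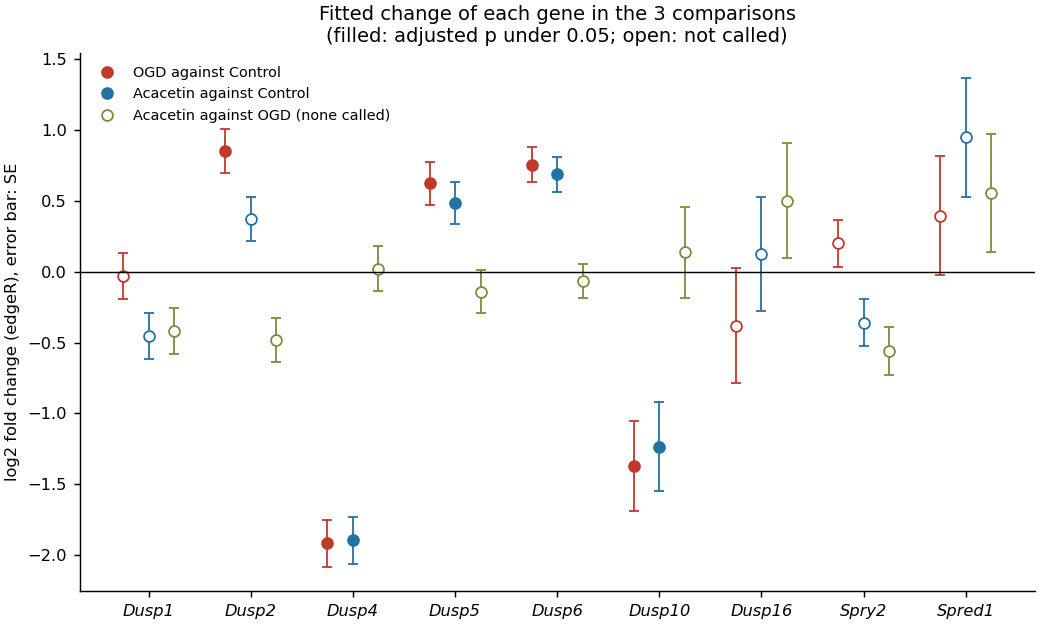
Log2 fold change of each of the 9 genes (vertical, edgeR) in OGD against Control, Acacetin against Control and Acacetin against OGD, with SE as error bars. Filled points were called at an adjusted p under 0.05 and open points were not, and 5, 4 and 0 points are filled in the 3 comparisons. The SE is widest for Spred1 and Dusp16.

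Further features of the members were read from reference sequences after their values were known, and are given as a description. Of the 9 genes, 8 were matched in the RefSeq promoter table (GRCm38.p6), with GC contents of 57.3% to 72.3% beside a median of 52.7% over all promoters. The CRE core TGACG stood in 4 of 8 (Dusp1, Dusp2, Dusp5 and Dusp16), as in 20.8% of all promoters, and the letters ACGTG in 4 of 8 (Dusp1, Dusp2, Dusp5 and Spred1), as in 19.6%. The promoters of Dusp6, Dusp10 and Spry2 held no match to any motif searched. The AP-1 motif TGANTCA, the ETS core CCGGAAG and the NF-kB site, found in 7.81%, 8.86% and 4.51% of all promoters, were in 0 of the 8. Both strands were searched, a palindrome counts also as its cores, and these letters say nothing on binding.

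AU-rich pentamers, ATTTA, are hallmarks of short-lived transcripts, and they were counted in the 3′UTR of the longest coding transcript of each gene in GENCODE M21. Dusp2 had 4 in 581 bases, or 6.89 per kilobase, and Dusp1 had 4 in 690 bases, or 5.80 per kilobase. These densities were at percentiles 97.2 and 95.5 of 10613 genes with a 3′UTR of at least 100 bases, whose median was 1.25 per kilobase. Dusp5 and Dusp6 had 1 each, at 0.902 and 0.841 per kilobase, and Dusp4 had 2, at 1.80 per kilobase. The longer motif TATTTAT stood in 4 of the 9 (Dusp1, Dusp2, Spry2 and Spred1) and in 27.8% of all genes. The 3 members with the lowest unadjusted p in Acacetin against OGD were among these 4, an observation made after the values were seen and not tested. The other of these 4, Spred1, had a higher mean in Acacetin (0.55 ± 0.42, not called). By ATTTA density Spry2, at 2.34 per kilobase, stood below Dusp10 (2.695) and Spred1 (2.77), and Dusp16 was at 1.24.

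The members did not follow a single pattern over the 12 libraries. On log2 CPM, Pearson's r was 0.89 between Dusp5 and Dusp6, 0.85 between Dusp4 and Dusp10, and 0.83 between Spred1 and Dusp16. It was -0.93 between Dusp4 and Dusp6. Dusp2 stood at 0.78 with Dusp5 and 0.75 with Dusp6, and Dusp1 was closest to Spry2 at 0.63. These values describe 12 libraries that share groups, depth and length trends, and they carry no p.

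Over the genes tested with a mean of at least 2 CPM, the 2 whose log2 CPM most resembled each member were taken by Pearson's r over the 12 libraries. Symbols that are model names (Gm, Rik, AC, AL, BC or LOC) were left out. The highest r was thus picked from 9466 candidates, or 9467 for Dusp10. For Dusp2 these were Ier2 (r = 0.977), an immediate early gene, and the histone gene H2aw (0.973). For Dusp5 they were Ppp1r15a (0.922), a stress-induced phosphatase regulator, and Sdc4 (0.920), a cell surface proteoglycan. Dusp6 was nearest to Wdr1 (0.984) and Adat1 (0.980), Dusp4 to Aplp1 (0.985) and Zkscan17 (0.985), and Dusp10 to Oma1 (0.970) and Usp3 (0.955). Spred1 was nearest to Qk (0.993) and Aqr (0.989), and Dusp16 to Fam102b (0.980) and Btbd7 (0.976). Dusp1 and Spry2 had the weakest likeness, with H2-Q4 (0.889) and H2ac6 (0.875) for Dusp1 and Pbxip1 (0.892) and Sez6l2 (0.830) for Spry2.

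The rest of the pathway was followed in 7 lists of 166 genes, 145 of them tested. In OGD against Control 46 were called, 25 higher and 21 lower, which is 31.7% beside 28.8% of all tested genes. In Acacetin against Control 43 were called, 18 higher and 25 lower, which is 29.7% beside 26.9%. In Acacetin against OGD edgeR called 0 of the 145. Median log2 fold changes over the 145 were 0.05 and 0.10 against Control, beside 0.03 and 0.08 over all genes.

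Among 16 other MAPK phosphatase genes, 3 rose and 3 fell in OGD, and 2 rose and 4 fell in Acacetin against Control. These calls are 37.5% of the list in both comparisons, beside 28.8% and 26.9% of all tested genes. Ptpn7, a blood cell phosphatase that binds ERK and p38, rose from 19.3 ± 3.18 CPM in Control to 63.5 ± 6.57 in OGD and 52.4 ± 10.5 in Acacetin (log2 fold changes 1.72 ± 0.16 and 1.44 ± 0.16). Ptpn5, of the same class, also rose in both (0.88 ± 0.17 and 0.91 ± 0.17). Dusp8, which acts on JNK and p38, fell from 4.97 ± 1.21 to 1.29 ± 0.229 and 1.24 ± 0.245 CPM (-1.95 ± 0.27 and -2.01 ± 0.26), and Dusp14 fell by 1.15 and 1.18 on the log2 scale. Dusp7, a close relative of Dusp6, was not called in OGD (-0.30 ± 0.12, adjusted p = 0.0672) and was called lower in Acacetin (-0.40 ± 0.12, adjusted p = 0.0197). The Acacetin call was lost without Control 2 (adjusted p = 0.0583) or without Acacetin 3 (0.0573). In OGD, Dusp7 was called lower with DESeq2 (adjusted p = 0.00246), with its size factors in edgeR (0.0242) and with the length trend removed (0.0106). Dusp3, at 0.24 ± 0.11 and 0.20 ± 0.11, was called in neither by edgeR and higher in both by DESeq2 (adjusted p = 0.0254 and 0.028).

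Of 20 other Sprouty, Spred and RAS or RAF inhibitor genes, 2 rose and 3 fell in OGD, and 1 rose and 3 fell in Acacetin against Control. The share called was 25% and 20%, beside 28.8% and 26.9% of all tested genes. The paralogs Spry1, Spry4 and Spred2 were called in neither comparison, with log2 fold changes of 0.02 ± 0.31, -0.03 ± 0.26 and 0.46 ± 0.27 in OGD. Without Acacetin 1, Spred2 was called higher in Acacetin against Control (adjusted p = 0.00924). Errfi1, an inhibitor of EGF receptors, rose (0.87 ± 0.18 and 0.90 ± 0.18). Rasa3, a RAS GTPase-activating protein, fell in both (-0.79 ± 0.16 and -0.54 ± 0.16), the latter with adjusted p-values of 0.061 to 0.102 without Control 2, Control 4 or Acacetin 2. Rasal3, of the same class, was called higher in OGD (0.52 ± 0.14, adjusted p = 0.0137) and not in Acacetin (0.32 ± 0.14, adjusted p = 0.104). Dok1, an adaptor that recruits RAS GTPase-activating protein, fell by 0.70 and 0.71 on the log2 scale (adjusted p = 0.0202 and 0.0199). The call of Dok1 was lost in OGD without Control 1, Control 2, OGD 2 or OGD 4 (adjusted p 0.0509 to 0.0559) and in Acacetin without Control 1, Control 2 or Acacetin 4 (0.0524 to 0.0619). Its relative Dok2 was at -0.04 ± 0.18 in OGD and was called lower in Acacetin (-0.53 ± 0.18). The latter call was lost without any 1 of 6 libraries, Control 1 to 3 and Acacetin 2 to 4 (adjusted p 0.0605 to 0.133), and Acacetin against OGD was at -0.49 ± 0.18 (adjusted p = 0.829).

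Of 25 genes of the RAS, RAF, MEK and ERK cascade, 3 rose and 3 fell in OGD, and 2 rose and 3 fell in Acacetin against Control. This made 24% and 20% of the list, beside 28.8% and 26.9% of all tested genes. Mapk3, which encodes ERK1, fell from 246 ± 13.2 CPM in Control to 101 ± 23.0 in OGD and 110 ± 36.7 in Acacetin (-1.28 ± 0.21 and -1.17 ± 0.21, adjusted p = 0.000677 and 0.00154). The small GTPase gene Rras fell from 65.9 ± 4.19 to 18.7 ± 4.10 and 19.5 ± 9.24 CPM, while Nras rose (0.60 ± 0.14 and 0.63 ± 0.14). The adaptor gene Gab2 was called lower in OGD (-1.18 ± 0.34), a call lost without Control 4, OGD 1, OGD 2 or OGD 3 (adjusted p 0.0523 to 0.09). Rras2 was called lower in Acacetin (-0.88 ± 0.26), a call lost without Control 2, Control 3, Control 4 or Acacetin 4 (adjusted p 0.0564 to 0.0639).

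Of 23 p38 and JNK cascade genes, 4 rose and 3 fell in OGD, and 4 rose and none fell in Acacetin against Control. That is 30.4% and 17.4% of the list, beside 28.8% and 26.9% of all tested genes. Of the genes named by the rule, 3 were called higher in both: Map2k3, a kinase that activates p38 (0.80 ± 0.14 and 0.61 ± 0.14), Mapk14, which encodes p38 alpha (0.74 ± 0.12 and 0.69 ± 0.12), and Mapkapk3, a kinase that p38 activates (0.62 ± 0.12 and 0.52 ± 0.12). Mapk14 went from 28.9 ± 0.853 CPM in Control to 48.3 ± 5.93 in OGD and 46.6 ± 4.67 in Acacetin. Mapk8, which encodes JNK1, was not called (-0.38 ± 0.49 and 0.40 ± 0.48). Map3k7, which encodes the kinase TAK1, was called in Acacetin (1.15 ± 0.33), a call lost without Control 1, Control 2 or Acacetin 3 (adjusted p 0.0559 to 0.0675). The JNK scaffold gene Mapk8ip3 was called lower in OGD (-0.47 ± 0.14), a call lost without Control 1 (0.0548) or OGD 2 (0.0643). Mapk8ip3 missed the threshold in Acacetin (-0.39 ± 0.14, adjusted p = 0.0507) and passed it without Acacetin 1 (0.0208) or with DESeq2 (0.0166).

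Of 28 transcripts known to be induced through ERK, 5 rose and 5 fell in OGD, and 3 rose and 7 fell in Acacetin against Control. In each comparison 35.7% of the list was called, beside 28.8% and 26.9% of all tested genes. The AP-1 gene Fosl1 rose from 13.1 ± 1.03 CPM to 38.5 ± 3.44 in OGD and 33.8 ± 4.81 in Acacetin (1.56 ± 0.14 and 1.37 ± 0.13). Srf, given above beside Dusp5, and Mafk (0.83 ± 0.14 and 0.64 ± 0.14) rose as well. Phlda1 fell by 1.35 and 1.28 on the log2 scale. Fos, the classic early gene, was not called by edgeR, at 5.10 ± 1.18, 7.33 ± 1.35 and 5.27 ± 0.223 CPM. It was called higher in OGD with DESeq2 (adjusted p = 0.0437) and without OGD 2 (0.0482). Egr1 was not among the genes tested. The list thus moved in both directions, as did the members.

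Of 16 growth factor and colony stimulating factor genes, 2 rose and 2 fell in OGD, and 1 rose and 4 fell in Acacetin against Control. Called genes were 25% and 31.2% of the list, beside 28.8% and 26.9% of all tested genes. Csf1r, the receptor that sustains microglia and signals through ERK, rose from 66.3 ± 8.43 CPM to 144 ± 11.96 in OGD and 101 ± 15.6 in Acacetin (1.12 ± 0.14 and 0.60 ± 0.14). All 4 Acacetin libraries were below all 4 OGD libraries for Csf1r, a difference of -0.52 ± 0.14 that was not called (adjusted p = 0.65). Csf3r, the granulocyte colony stimulating factor receptor, fell (-1.08 ± 0.24 and -1.59 ± 0.24), and so did the growth factor gene Pdgfa (-1.05 ± 0.18 and -1.21 ± 0.18). Pdgfb was called lower in Acacetin (-0.72 ± 0.15) and not in OGD (-0.37 ± 0.15, adjusted p = 0.074). It was called lower in OGD too with DESeq2 (adjusted p = 0.0143), its size factors (0.0365), the length trend removed (0.0125) or only the 8 libraries compared (0.0463). Hgf, which encodes hepatocyte growth factor, was scarce at 0.221 ± 0.122 CPM in Control and 0.772 ± 0.212 in OGD, and its call was lost without Control 1, Control 2 or OGD 2 (adjusted p 0.0532 to 0.0563). In Acacetin, Hgf was called without Control 4 (0.0381) or Acacetin 1 (0.0254).

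Of 17 regulators that bind AU-rich transcripts or remove poly(A) tails, 6 rose and 2 fell in OGD (47.1%, beside 28.8% of all tested genes), and 5 rose and 4 fell in Acacetin against Control (52.9%, beside 26.9%). Zfp36, which encodes tristetraprolin and destabilises AU-rich transcripts, fell from 102 ± 15.8 CPM to 63.9 ± 3.68 in OGD and 53.1 ± 7.97 in Acacetin (-0.68 ± 0.14 and -0.94 ± 0.14). Its relative Zfp36l2 rose from 16.6 ± 1.68 to 42.7 ± 10.2 and 40.04 ± 8.66 CPM. Tob2, which recruits deadenylases, rose from 11.1 ± 0.932 to 26.3 ± 4.85 and 23.9 ± 3.64 CPM, Tob1 rose by 1.04 and 1.13 on the log2 scale, and the RNase gene Zc3h12a by 0.88 and 0.63. The deadenylase gene Parn fell (-0.81 ± 0.16 and -0.60 ± 0.16), the latter with an adjusted p of 0.0652 without Control 4.

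**Figure D5:**
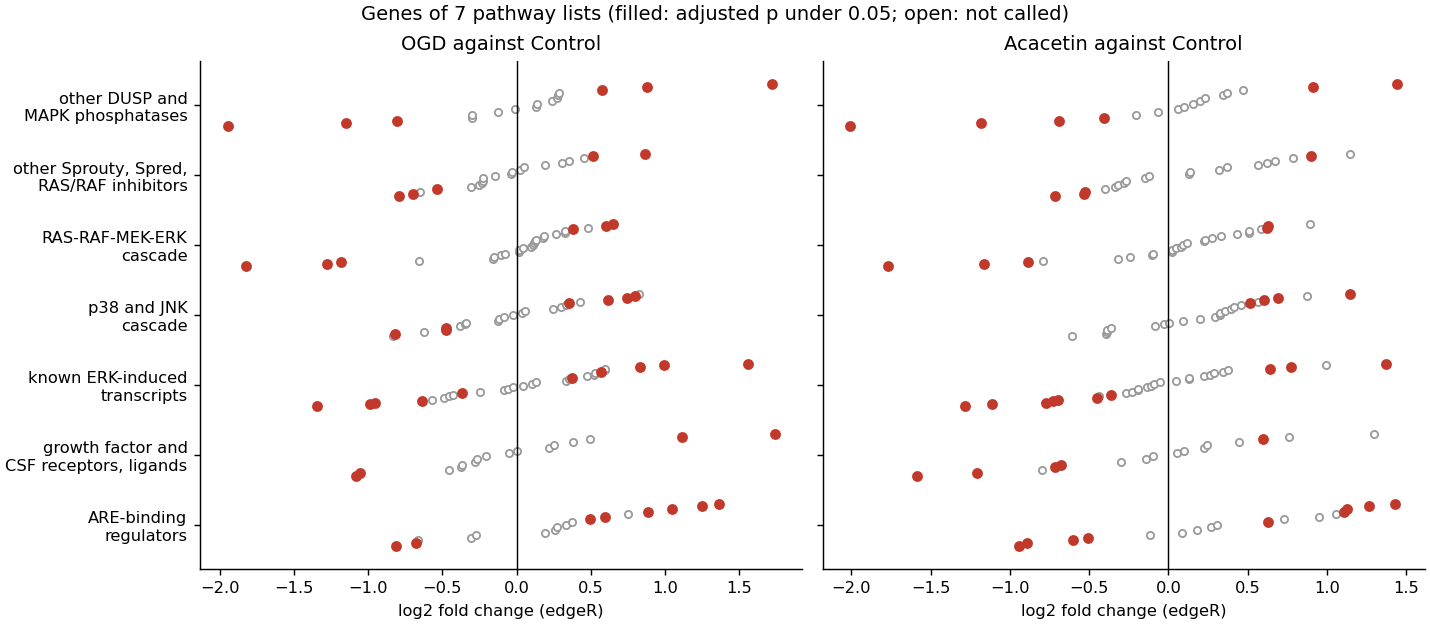
Log2 fold change (edgeR) of every tested gene of the 7 lists, 145 genes, in OGD against Control (left) and Acacetin against Control (right), with 1 row per list. Filled points were called at an adjusted p under 0.05 (46 at left, 43 at right) and open points were not. Each list holds filled points on both sides of 0 at left, and at right the p38 and JNK row holds them only above 0.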

How the data were processed

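RNA sequencing of 12 BV2 samples was used, in groups set by the treatment labels. Per the submitters' processing notes, the tools were bcl2fastq, HISAT2 and DESeq2 and the build GRCm39, without versions or roles. Which counter, annotation release and strand setting made the counts is not given in the sources used here. Tables of raw counts (24934 genes) and FPKM (24728 genes) were deposited by the authors. The deposited table gives chromosomes without positions. All 12 columns matched a library, with 0 unmatched.

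The members and lists were chosen with earlier results of these data known, and the lists come from general knowledge. With edgeR 4.0.16 in R 4.3.3, filterByExpr (minimum count 10, minimum total 15) kept 13249 genes, all 9 members among them. One quasi-likelihood fit with TMM scaling and 3 group means gave 3 two-sided comparisons, with Benjamini-Hochberg adjustment over all tested genes and calls at an adjusted p under 0.05. CPM use TMM-scaled library sizes. The fit was tested on simulated data. Named list genes are the up to 4 with the smallest p among those called per list and comparison, plus 12 kinase, early and paralog genes, of which 1 is not reported here; Ier2, H2aw and the other likeness genes follow the rule given beside them. The 3′UTR counts and the trend with length (lowess, span 0.5) were chosen after the data were seen. Alternatives were DESeq2 1.42.0, its size factors, other filters, a replicate block, the 8 libraries compared, limma 3.58.1 on log2(FPKM + 1) or (FPKM + 0.1), and leaving out libraries. Depth limits only counting error, since reads are not independent molecules.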

Additional observations from a re-analysis of the deposited data

Results flagged for a closer look

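Of 153 groups of 4 libraries examined over the genes named, 8 held a library whose distance to the nearest other one took up more than 0.829 of the group's range, Dixon's limit for 4 values. Chance gives about 1 in 20.

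Among the members, Dusp16 was highest in Control 4 at 7.36 CPM (next 3.57, lowest 3.44) and in OGD 4 at 5.39 CPM (next 3.06, lowest 2.60). These libraries had the highest slope on gene length of their groups. Dusp6 was lowest in OGD 3 at 74.4 CPM (next 78.8, highest 79.1), a small difference in a tight group.

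Among pathway genes, Mapk14 was highest in OGD 4 at 57.0 CPM (next 46.6, lowest 44.6). Mapk3 was highest in OGD 1 at 135 CPM (next 92.6, lowest 85.9). Mapk8 was highest in Control 4 at 2.69 CPM (next 1.53, lowest 1.35). Mapk8ip3 was lowest in OGD 2 at 16.8 CPM (next 22.1, highest 22.8). Ptpn7 was highest in Control 3 at 24.0 CPM (next 18.2, lowest 17.3).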

How the results depend on the processing

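In OGD against Control, Dusp2, Dusp4, Dusp6 and Dusp10 kept their call in all 18 alternatives; Dusp5 lost it on FPKM (adjusted p = 0.177 with 1 added and 0.164 with 0.1). In Acacetin against Control, Dusp4 and Dusp6 kept theirs in all 18, and on FPKM with 0.1 added 2 members stayed called, Dusp10 being lost (adjusted p = 0.0714) with Dusp5. Leaving out a library gave 5 to 5, 3 to 6 and 0 to 0 members called in the 3 comparisons, 34 to 45, 29 to 64 and 0 to 0 list genes, and 2798 to 3501, 2373 to 5818 (without Acacetin 1) and 0 to 9 of all genes. Without OGD 2 and 3, 2010 genes and 28 list genes were called in OGD, and 30 list genes on FPKM with 1 added. For all genes in Acacetin against OGD the counts were 37 with DESeq2, 8 without a filter, 4 without the length trend or without Acacetin 1 and 3, 1 with only 8 libraries and 2 with the block. The share of higher calls in OGD was 56.3%, and 32.2% and 33.7% on FPKM with 1 and 0.1 added. FPKM with 0.1 added put the median of all genes at -0.11, 0.17 and 0.24 in the 3 comparisons. The cause was not tested.

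Of the 30 and 31 calls of named list genes against Control, 26 and 24 held whichever library was left out. On FPKM with 1 added, the OGD calls of Errfi1, Gab2, Hgf, Mapk14, Mapk8ip3, Mapkapk3, Nras, Ptpn5, Rasal3 and Tob1 were lost (adjusted p 0.0648 to 0.281), and the Acacetin calls of Dok2, Dusp7, Map3k7, Parn, Pdgfb, Rasa3 and Rras2 (0.072 to 0.405). Without OGD 2 and 3, the OGD calls of Csf3r, Dok1, Gab2, Hgf, Mapk8ip3, Nras and Rasa3 were lost (0.067 to 0.236). Calls gained under other settings included those of Map3k7 in OGD with only 8 libraries (0.0199), of Gab2 in Acacetin without the length trend (0.0263), and of Spred2 (0.0355) and Mapk8ip3 (0.0425) in Acacetin without Acacetin 1 and 3.

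Among members and named genes, directions changed only for differences that were not called. In OGD against Control, leaving out a library gave -0.132 to 0.058 for Dusp1, -0.004 to 0.56 for Spred1, -0.115 to 0.056 for Dok2, -0.17 to 0.21 for Spry1 and -0.24 to 0.16 for Spry4. Spry1 was -0.010 with DESeq2 and -0.008 with its size factors, -0.030 and -0.088 on FPKM with 1 and 0.1 added, and -0.082 without OGD 2 and 3, where Spry4 was 0.21. In Acacetin against Control, leaving out a library gave -0.19 to 0.55 for Dusp16 (-0.059 without the length trend), -0.069 to 0.241 for Fos, -0.28 to 0.78 for Mapk8 and -0.028 to 0.39 for Spry1. In Acacetin against OGD it gave -0.077 to 0.088 for Dusp4 and -0.148 to 0.013 for Dusp6. Dusp4 was -0.033 without OGD 2 and 3 and -0.019 without Acacetin 1 and 3, where Dusp6 was 0.020. On FPKM with 1 and 0.1 added, Dusp5 was 0.13 and 0.14, and Dusp6 0.20 and 0.22, beside medians of all genes of 0.16 and 0.24.

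Libraries of 1 number paired only in part, with correlations of their deviations from -0.29 to 0.51. Number 4 was closest to its own number in every comparison (r = 0.51, 0.40 and 0.38). Number 1 was so only against Control, number 2 only in Acacetin against OGD, and number 3 in no comparison. The main fit does not use these numbers. With the replicate block 5, 5 and 0 members, 58, 53 and 0 list genes, and 4572, 4279 and 2 of all genes were called. The main fit called 3813, 3559 and 0 of all genes. The block also gave calls to Dusp7, Map3k7 and Pdgfb in OGD and to Dusp1, Gab2, Mapk8ip3 and Spred2 in Acacetin (adjusted p 0.0246 to 0.0493). Depth limits Dusp10 most, with as few as 9 reads in a library.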
